A study of Mus musculus with 8 samples.

Results

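The collagen and stromal matrix genes comprise 59 listed genes for collagens, laminins and other structural proteins of the extracellular matrix, together with matricellular proteins, enzymes of collagen maturation and cell-surface receptors of fibroblasts. A gene was taken as measured where a row of the array table named exactly that gene and no other, which held for 50 of the 59, among 14860 genes named in this way in a table of 23332 rows. The measured genes comprised all 6 fibrillar collagen genes, 15 of 18 basement membrane genes and 29 of 35 other matrix genes, each read by 1 row. Not analysed here were Lama3, Lama5, Lamb2, Fbn1, Fmod, Lox, Serpinh1 and Efemp2, and also Pcolce, whose row names a further gene.

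Gene expression was measured in 4 MMTV-Wnt/ILK and 4 MMTV-Wnt1 mammary tumors, each on its own Affymetrix Mouse Exon 1.0 ST array. All 8 tumors arose in the mammary fat pads of nulliparous females, on an FVB background by the breeding described, and all carried Wnt1 under the mouse mammary tumor virus (MMTV) promoter, which is active in mammary epithelium. The MMTV-Wnt/ILK tumors carried in addition a human ILK (integrin-linked kinase) transgene under the same promoter. The ages of the animals are not given in the sources used here. The comparison asks how tumors with both transgenes differ from tumors with Wnt1 alone.

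The extracellular matrix of the mammary gland has a fibrous stroma, made largely by fibroblasts, and a basement membrane, which separates the epithelium from that stroma. Fibrillar collagens are secreted as procollagens, trimmed outside the cell, packed into fibrils with collagens and proteoglycans bound to their surface, and crosslinked by lysyl oxidases. The basement membrane is a sheet of laminin and collagen IV networks held together by nidogens and perlecan, to which both epithelial and endothelial cells contribute.

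All values below are log2 expression values, and every fold change is the log2 difference of MMTV-Wnt/ILK over MMTV-Wnt1 means. Array medians lay between 6.89 and 7.23, and pairs of arrays correlated between 0.920 and 0.974 over all rows. The mean of the mouse Ilk row was 0.14 higher in MMTV-Wnt/ILK tumors (SE 0.15), and it is not known here whether the probes see human ILK, so the row does not check the labels. The epithelial marker Epcam was at 12.39 to 12.82 in MMTV-Wnt/ILK and 12.33 to 12.89 in MMTV-Wnt1 tumors, far above the array medians. The samples are bulk tissue, in which fewer cells of a type and less RNA per cell cannot be told apart.

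No matrix gene changed past the adjusted threshold in MMTV-Wnt/ILK tumors. The mean was higher in MMTV-Wnt/ILK than in MMTV-Wnt1 tumors for 37 of the 50 genes (74.0%, against 45.3% of all rows), and lower for 13, with a median log2 fold change of 0.36 over the matrix genes and -0.03 over all rows. At an adjusted p under 0.05 (limma, Benjamini-Hochberg over all rows) the count was 0 of 50, as it was 0 of all rows (0.00%), and the smallest adjusted p among the matrix genes was 0.905. At an unadjusted p under 0.05 limma called 2 of 50 genes, against 5.11% of all rows: 1 higher in MMTV-Wnt/ILK, Col16a1 (2.91% of all rows were so called), and 1 lower, Pcolce2 (2.21% of all rows). The 4 tumors of each group lay on separate sides for 1 gene, Pcolce2, against 2.90% of all rows and 1.42% with MMTV-Wnt/ILK on the lower side.

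The excess of higher means rested on 1 tumor. MMTV-Wnt1 tumor 3 was the lowest of all 8 tumors in 36 of the 50 matrix genes (72.0%), against 11.1% of all rows, comprising 5 of 6 fibrillar, 9 of 15 basement membrane and 22 of 29 other matrix genes. Without this tumor the mean was higher in MMTV-Wnt/ILK for 21 of 50 genes (42.0%, against 46.3% of all rows) and the median log2 fold change was -0.03, against -0.02 over all rows; 1 gene, Pcolce2, was then at an unadjusted p under 0.05, against 4.61% of all rows. At the other end, MMTV-Wnt/ILK tumor 4 was the highest of the 8 in 20 genes (40.0%, against 7.68% of all rows), and MMTV-Wnt1 tumor 2 in 13 (26.0%, against 16.4% of all rows). MMTV-Wnt1 tumor 1, the lowest of the 8 in 29.2% of all rows, was the lowest in 2 matrix genes.

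**Figure D1:**
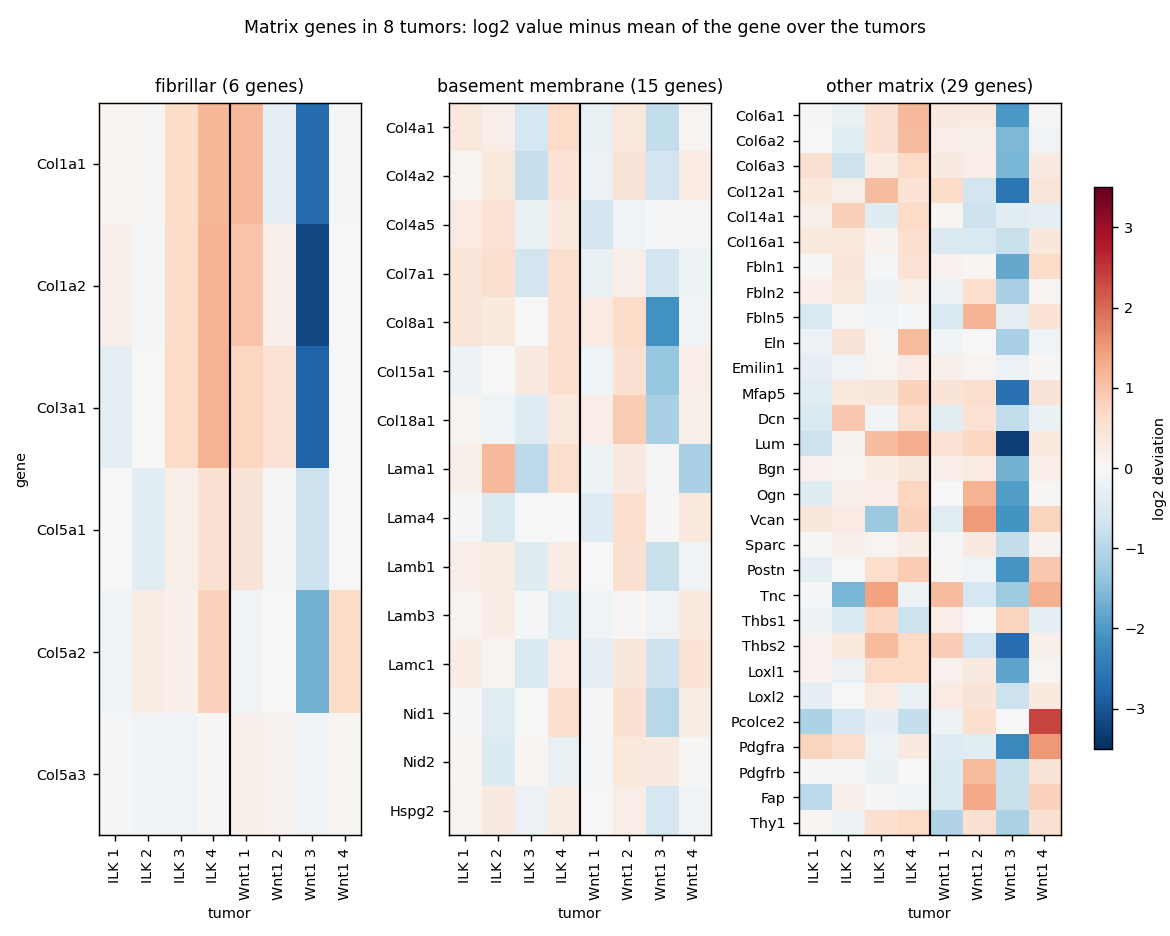
Deviation of each matrix gene from its own mean over the 8 tumors (log2, colour scale), with genes down the page in 3 classes and tumors across, the 4 MMTV-Wnt/ILK tumors (ILK) left of the line and the 4 MMTV-Wnt1 tumors (Wnt1) right of it. The column of MMTV-Wnt1 tumor 3 is blue for most fibrillar and other matrix genes, and is the lowest of the 8 in 36 of 50 genes.

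The fibrillar class had the largest median log2 fold change of the 3 classes, 0.67, with 5 of 6 genes higher and none past the adjusted threshold. Col1a1, which encodes the main chain of type I collagen (row 6783685), was at 10.79, 10.74, 11.37 and 11.87 in MMTV-Wnt/ILK tumors 1 to 4, against 11.84, 10.44, 8.02 and 10.65 in MMTV-Wnt1 tumors 1 to 4. MMTV-Wnt1 tumor 1 lay beside MMTV-Wnt/ILK tumor 4 at the top, and the other 3 MMTV-Wnt1 tumors lay below every MMTV-Wnt/ILK tumor, tumor 3 farthest. The log2 fold change was 0.96 ± 0.71 (SE, n = 4 each, exact two-sided permutation p = 0.314), and 0.22 without MMTV-Wnt1 tumor 3. Its partner chain Col1a2 (row 6943818) was at 11.03, 10.80, 11.54 and 12.04 in MMTV-Wnt/ILK tumors 1 to 4, against 11.86, 11.04, 7.71 and 10.86 in MMTV-Wnt1 tumors 1 to 4. Col3a1, the type III collagen of loose stroma, was at 9.74, 10.04, 10.72 and 11.28 in MMTV-Wnt/ILK tumors 1 to 4, against 10.81, 10.58, 7.26 and 10.05 in MMTV-Wnt1 tumors 1 to 4. In both genes MMTV-Wnt1 tumor 3 was far below the others while the other 3 MMTV-Wnt1 tumors lay within the MMTV-Wnt/ILK range. Their log2 fold changes of 0.99 ± 0.80 and 0.77 ± 0.75 (SE) became 0.10 and -0.03 without that tumor.

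Type V collagen is a minor component that sets fibril diameter, and its chains differed among themselves. Col5a2 was at 8.57, 8.92, 8.85 and 9.49 in MMTV-Wnt/ILK tumors 1 to 4, against 8.54, 8.68, 6.99 and 9.32 in MMTV-Wnt1 tumors 1 to 4, a log2 fold change of 0.58 ± 0.45 (SE, exact permutation p = 0.343). Col5a1 was at 7.74, 7.34, 7.93 and 8.26 in MMTV-Wnt/ILK tumors 1 to 4, against 8.19, 7.66, 6.98 and 7.73 in MMTV-Wnt1 tumors 1 to 4, a log2 fold change of 0.18 ± 0.29 (SE). In both genes MMTV-Wnt1 tumor 3 was again the lowest and MMTV-Wnt/ILK tumor 4 the highest. Col5a3 varied least of the 6, at 7.27, 7.25, 7.22 and 7.40 in MMTV-Wnt/ILK tumors 1 to 4, against 7.52, 7.49, 7.24 and 7.43 in MMTV-Wnt1 tumors 1 to 4. It was the fibrillar gene with a lower mean in MMTV-Wnt/ILK (-0.13 ± 0.13, SE), and MMTV-Wnt1 tumor 3 lay within the MMTV-Wnt/ILK range. MMTV-Wnt/ILK tumor 4 was the highest of the 4 MMTV-Wnt/ILK tumors in all 6 fibrillar genes, against 19.0% of all rows. The SD was larger among MMTV-Wnt1 than MMTV-Wnt/ILK tumors in all 6, against 67.3% of all rows, and without MMTV-Wnt1 tumor 3 in 2 of 6, against 64.0% of all rows.

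**Figure D2:**
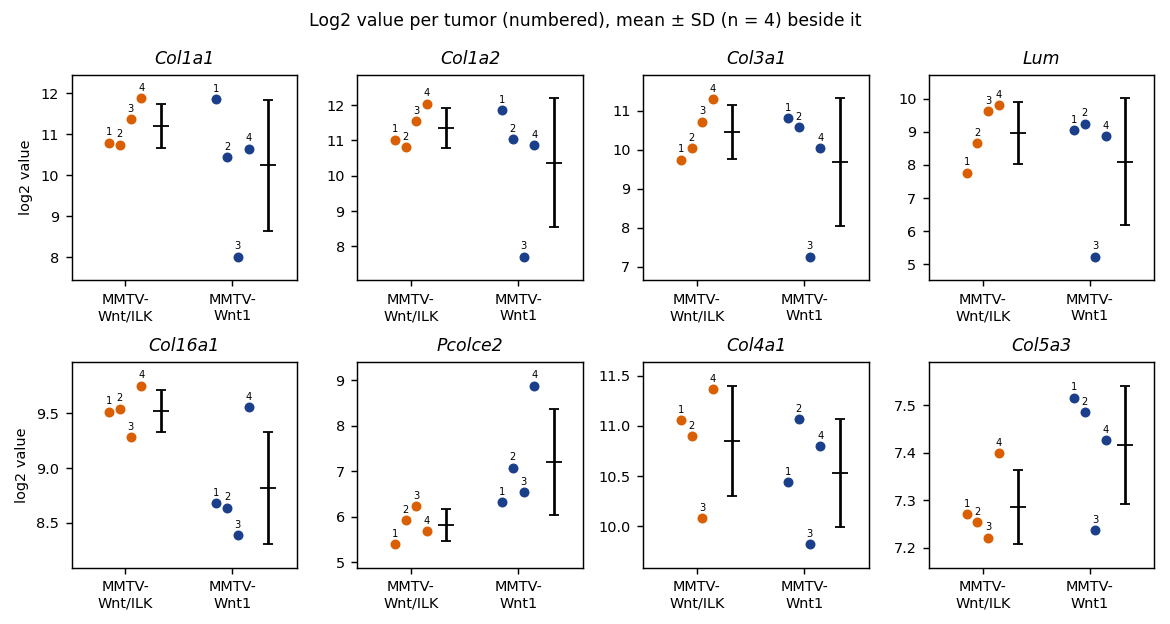
Log2 value of 8 matrix genes in each tumor, with the tumor number above each point, MMTV-Wnt/ILK in orange at the left and MMTV-Wnt1 in blue at the right of each panel, and the mean ± SD (n = 4) beside each group; each panel has its own vertical axis, which does not start at 0. In Col1a1, Col1a2, Col3a1 and Lum MMTV-Wnt1 tumor 3 lies far below the other 7 tumors, in Col16a1 4 MMTV-Wnt/ILK tumors lie above 3 of the 4 MMTV-Wnt1 tumors, and Pcolce2 is the panel in which the groups do not overlap.

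The 150 bases before the annotated start are shown for 5 genes, picked as examples with their values known. Their levels in MMTV-Wnt1 tumor 3 lay over 2 log2 units below the mean of the other MMTV-Wnt1 tumors (Col1a2, Col3a1, Col6a1 and Thbs2) or by far less (Col5a3, -0.24). Other matrix genes, such as Col1a1 (-2.96) and Lum, also lay over 2 log2 units below and are not shown. They are RefSeq sequences of GRCm38.p6, written 5′ to 3′ on the strand of the gene, with capitals for the motifs searched on both strands: TATAAA (the TATA box, which shows as TTTATA where it lies on the other strand), CCAAT (the CCAAT box, shown in reverse as ATTGG) and GGGCGG (a GC box that is bound by Sp1, shown in reverse as CCGCCC).
Col1a2, chr6:4505468-4505617, plus strand: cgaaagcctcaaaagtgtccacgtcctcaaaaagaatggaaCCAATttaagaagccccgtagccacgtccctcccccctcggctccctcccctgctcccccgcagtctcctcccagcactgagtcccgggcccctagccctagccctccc
Col3a1, chr1:45311388-45311537, plus strand: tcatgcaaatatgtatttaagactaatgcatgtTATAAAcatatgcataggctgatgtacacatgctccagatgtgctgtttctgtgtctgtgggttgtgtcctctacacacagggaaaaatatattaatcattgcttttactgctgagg
Col6a1, chr10:76726045-76726194, minus strand: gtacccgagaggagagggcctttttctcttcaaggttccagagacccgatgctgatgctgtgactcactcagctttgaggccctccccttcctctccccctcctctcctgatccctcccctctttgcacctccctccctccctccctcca
Thbs2, chr17:14694263-14694412, minus strand: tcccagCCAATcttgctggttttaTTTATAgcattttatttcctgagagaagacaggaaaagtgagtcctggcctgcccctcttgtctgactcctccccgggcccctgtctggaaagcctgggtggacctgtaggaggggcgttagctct
Col5a3, chr9:20815068-20815217, minus strand: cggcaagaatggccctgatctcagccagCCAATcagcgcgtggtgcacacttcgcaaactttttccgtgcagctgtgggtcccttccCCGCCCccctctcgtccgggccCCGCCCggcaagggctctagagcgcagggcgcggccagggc
The motifs do not overlap each other in these windows. TATAAA stood in the window of Col3a1 and, reversed, in that of Thbs2, CCAAT in those of Col1a2, Thbs2 and Col5a3, and GGGCGG, reversed, in that of Col5a3, while the window of Col6a1 held none of the 3. Of 39 promoters found for 32 of the measured matrix genes, 4 held TATAAA (10.3%, against 7.57% of 32851 promoters of this length), 9 held CCAAT (23.1%, against 24.5%) and 17 held GGGCGG (43.6%, against 28.6%). A match describes the letters only, and none of these shares was tested.

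The basement membrane genes had the smallest median log2 fold change of the 3 classes, at 0.18, with 11 of 15 genes higher in MMTV-Wnt/ILK and none called at either threshold. Collagen IV forms the sheet-like network of the basement membrane. Its chain Col4a1 was at 11.06, 10.90, 10.08 and 11.37 in MMTV-Wnt/ILK tumors 1 to 4, against 10.44, 11.07, 9.82 and 10.80 in MMTV-Wnt1 tumors 1 to 4, and MMTV-Wnt/ILK tumor 3 lay with MMTV-Wnt1 tumor 3 at the bottom. The log2 fold change was 0.32 ± 0.34 (SE, exact permutation p = 0.429). Its partner Col4a2 ranged over 9.41 to 10.68 in MMTV-Wnt/ILK and 9.54 to 10.65 in MMTV-Wnt1 tumors and had its lowest value of all 8 in MMTV-Wnt/ILK tumor 3. Col4a5 was at 8.30, 8.49, 7.75 and 8.35 in MMTV-Wnt/ILK tumors 1 to 4, against 7.36, 7.89, 7.93 and 7.95 in MMTV-Wnt1 tumors 1 to 4, with 3 MMTV-Wnt/ILK tumors above every MMTV-Wnt1 tumor and MMTV-Wnt1 tumor 1 lowest. Its log2 fold change of 0.44 ± 0.21 (SE, limma unadjusted p = 0.069, exact permutation p = 0.114) was 0.49 without MMTV-Wnt1 tumor 3.

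The other collagens of the basement membrane zone were all 4 lowest in MMTV-Wnt1 tumor 3. Col7a1, which forms the anchoring fibrils of epithelia, was at 8.58, 8.73, 7.52 and 8.72 in MMTV-Wnt/ILK tumors 1 to 4, against 7.90, 8.37, 7.50 and 7.97 in MMTV-Wnt1 tumors 1 to 4. As many as 3 of the MMTV-Wnt/ILK tumors exceeded all MMTV-Wnt1 tumors and MMTV-Wnt/ILK tumor 3 was level with MMTV-Wnt1 tumor 3. The log2 fold change was 0.45 ± 0.31 (SE, exact permutation p = 0.286). Col8a1, a short-chain network collagen, was at 9.84, 9.78, 9.41 and 10.02 in MMTV-Wnt/ILK tumors 1 to 4, against 9.71, 10.07, 7.31 and 9.31 in MMTV-Wnt1 tumors 1 to 4, and its log2 fold change of 0.67 ± 0.53 (SE) was 0.07 without MMTV-Wnt1 tumor 3. Col15a1 and Col18a1, whose products carry glycosaminoglycan chains and in the case of Col18a1 the endostatin fragment, had log2 fold changes of 0.36 ± 0.39 and -0.08 ± 0.40 (SE), and the ranges overlapped in both.

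Laminins did not share a direction, with 3 of 5 genes higher and a median log2 fold change of 0.07. Lama1, the alpha chain of the laminin of embryonic and some epithelial basement membranes, was at 9.82, 10.76, 8.70 and 10.22 in MMTV-Wnt/ILK tumors 1 to 4, against 9.44, 9.94, 9.57 and 8.47 in MMTV-Wnt1 tumors 1 to 4. It was high in MMTV-Wnt/ILK tumor 2 and low in MMTV-Wnt1 tumor 4 and MMTV-Wnt/ILK tumor 3, and the groups overlapped (log2 fold change 0.52 ± 0.46, SE). Lama4, the alpha chain prominent in vessel walls, was at 9.96, 9.51, 10.03 and 9.996 in MMTV-Wnt/ILK tumors 1 to 4, against 9.55, 10.61, 10.07 and 10.37 in MMTV-Wnt1 tumors 1 to 4, with a lower mean in MMTV-Wnt/ILK (-0.28 ± 0.24, SE, exact permutation p = 0.286). Lamb1, a beta chain of the common laminins, was at 10.40, 10.42, 9.73 and 10.43 in MMTV-Wnt/ILK tumors 1 to 4, against 10.17, 10.69, 9.38 and 10.03 in MMTV-Wnt1 tumors 1 to 4. Among MMTV-Wnt/ILK tumors, tumor 3 stood apart on the low side, and its log2 fold change was 0.18 ± 0.29 (SE). Lamb3, a chain of the laminin under stratified and glandular epithelia, and the common gamma chain gene Lamc1 had log2 fold changes of -0.05 ± 0.19 and 0.07 ± 0.31 (SE).

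The linkers of the network also differed in direction. Nid2, an entactin that joins laminin to collagen IV, was at 8.41, 7.87, 8.42 and 8.09 in MMTV-Wnt/ILK tumors 1 to 4, against 8.28, 8.73, 8.66 and 8.40 in MMTV-Wnt1 tumors 1 to 4, and 2 MMTV-Wnt/ILK tumors lay below every MMTV-Wnt1 tumor. Its log2 fold change was -0.32 ± 0.18 (SE, exact permutation p = 0.171), and MMTV-Wnt1 tumor 3 was among its higher values. Hspg2, which encodes perlecan, was at 9.26, 9.49, 8.97 and 9.42 in MMTV-Wnt/ILK tumors 1 to 4, against 9.19, 9.41, 8.57 and 9.05 in MMTV-Wnt1 tumors 1 to 4, lowest in MMTV-Wnt1 tumor 3, with a log2 fold change of 0.23 ± 0.21 (SE). Nid1, the other nidogen, was likewise lowest in that tumor and had a log2 fold change of 0.11 ± 0.33 (SE).

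Within the MMTV-Wnt/ILK group, tumor 3 was the lowest of the 4 tumors in 10 of 15 basement membrane genes (66.7%), in 1 of 6 fibrillar genes and in 7 of 29 other matrix genes (24.1%), against 22.4% of all rows. For the 3 collagen IV genes the median deviation from the gene's own mean was -0.61 in that tumor, where the fibrillar median deviation was 0.43. All 5 measured skeletal muscle genes (Ckm, Acta1, Mylpf, Tnnt3 and Atp2a1) were highest of the 8 in the same tumor, against 7.65% of all rows. The mean level over the list was 5.97 to 9.13 in MMTV-Wnt/ILK and 6.06 to 8.05 in MMTV-Wnt1 tumors. The 8.05 was in MMTV-Wnt1 tumor 1, where the median deviation was 0.61 for fibrillar and -0.25 for collagen IV genes. The part of muscle in the result was not tested.

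The other matrix genes had a median log2 fold change of 0.46, with 21 of 29 genes higher, and held both genes called at an unadjusted p under 0.05. The 3 chains of collagen VI, which form beaded filaments around cells, behaved alike: each was lowest of the 8 in MMTV-Wnt1 tumor 3 and highest in MMTV-Wnt/ILK tumor 4. Col6a1 was at 8.93, 8.75, 9.53 and 10.12 in MMTV-Wnt/ILK tumors 1 to 4, against 9.30, 9.32, 6.996 and 9.03 in MMTV-Wnt1 tumors 1 to 4, a log2 fold change of 0.67 ± 0.54 (SE). Col6a2 was at 9.22, 8.85, 9.74 and 10.32 in MMTV-Wnt/ILK tumors 1 to 4, against 9.46, 9.40, 7.63 and 9.08 in MMTV-Wnt1 tumors 1 to 4, a log2 fold change of 0.64 ± 0.46 (SE). In both genes 2 MMTV-Wnt/ILK tumors lay above every MMTV-Wnt1 tumor and the other 2 lay among them. Col6a3 was at 10.40, 9.11, 10.12 and 10.53 in MMTV-Wnt/ILK tumors 1 to 4, against 10.19, 10.11, 8.27 and 10.19 in MMTV-Wnt1 tumors 1 to 4, a log2 fold change of 0.35 ± 0.49 (SE). Without MMTV-Wnt1 tumor 3 the log2 fold changes of the 3 genes were 0.12, 0.22 and -0.12.

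The fibril-associated collagens, which bind to the surface of collagen fibrils, kept higher means in MMTV-Wnt/ILK with and without MMTV-Wnt1 tumor 3, with median log2 fold changes of 0.71 and 0.57. Col16a1 (row 6917365) was at 9.52, 9.55, 9.28 and 9.76 in MMTV-Wnt/ILK tumors 1 to 4, against 8.68, 8.64, 8.39 and 9.56 in MMTV-Wnt1 tumors 1 to 4. All 4 MMTV-Wnt/ILK tumors lay above MMTV-Wnt1 tumors 1, 2 and 3, and MMTV-Wnt1 tumor 4 lay above 3 of them. The log2 fold change was 0.71 ± 0.25 (SE, limma unadjusted p = 0.022, adjusted p = 0.905, exact permutation p = 0.114), and it ranged from 0.57 to 0.96 as each tumor was left out. Its unadjusted limma p was 0.054, 0.061 and 0.059 without MMTV-Wnt1 tumor 2, MMTV-Wnt1 tumor 3 and MMTV-Wnt/ILK tumor 4. Col14a1 was at 10.81, 11.41, 10.15 and 11.28 in MMTV-Wnt/ILK tumors 1 to 4, against 10.69, 9.87, 10.21 and 10.29 in MMTV-Wnt1 tumors 1 to 4, with 3 MMTV-Wnt/ILK tumors above every MMTV-Wnt1 tumor and the other, tumor 3, inside their range. Its log2 fold change was 0.65 ± 0.30 (SE, exact permutation p = 0.143), and 0.63 without MMTV-Wnt1 tumor 3. Col12a1 was at 10.24, 10.09, 10.96 and 10.37 in MMTV-Wnt/ILK tumors 1 to 4, against 10.51, 9.23, 7.32 and 10.29 in MMTV-Wnt1 tumors 1 to 4, and its log2 fold change of 1.08 ± 0.63 (SE) was 0.41 without that tumor.

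Among genes of microfibrils and elastic fibers 4 of 6 had higher means. Eln, which encodes elastin, was at 8.43, 9.09, 8.66 and 9.75 in MMTV-Wnt/ILK tumors 1 to 4, against 8.48, 8.62, 7.51 and 8.51 in MMTV-Wnt1 tumors 1 to 4. MMTV-Wnt/ILK tumors 2, 3 and 4 lay above every MMTV-Wnt1 tumor, and the log2 fold change was 0.70 ± 0.34 (SE, limma unadjusted p = 0.072, exact permutation p = 0.171). Mfap5, a microfibril-associated glycoprotein, was at 8.31, 9.01, 9.07 and 9.49 in MMTV-Wnt/ILK tumors 1 to 4, against 9.12, 9.23, 6.06 and 9.13 in MMTV-Wnt1 tumors 1 to 4, and apart from MMTV-Wnt1 tumor 3 the groups lay in the same range (log2 fold change 0.59 ± 0.68, SE, and -0.19 without it). Fbln5, a fibulin needed for elastic fiber assembly, went the other way, at 7.08, 7.55, 7.49 and 7.55 in MMTV-Wnt/ILK tumors 1 to 4, against 7.07, 8.80, 7.26 and 8.09 in MMTV-Wnt1 tumors 1 to 4. MMTV-Wnt1 tumors 2 and 4 were its highest, and the log2 fold change was -0.39 ± 0.36 (SE). Fbln1, Fbln2 and Emilin1, which encode further elastic fiber and basement membrane zone glycoproteins, had log2 fold changes of 0.46, 0.31 and -0.05.

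All 5 proteoglycan genes were lowest of the 8 in MMTV-Wnt1 tumor 3, and all 5 had higher means in MMTV-Wnt/ILK. Dcn, which encodes decorin, a small leucine-rich proteoglycan of collagen fibrils, was at 10.66, 12.10, 11.07 and 11.77 in MMTV-Wnt/ILK tumors 1 to 4, against 10.79, 11.68, 10.31 and 10.94 in MMTV-Wnt1 tumors 1 to 4. The groups overlapped, and the log2 fold change was 0.47 ± 0.38 (SE, exact permutation p = 0.286). Bgn, its relative biglycan, was at 11.25, 11.19, 11.37 and 11.50 in MMTV-Wnt/ILK tumors 1 to 4, against 11.33, 11.40, 9.46 and 11.34 in MMTV-Wnt1 tumors 1 to 4. The 7 tumors other than MMTV-Wnt1 tumor 3 lay within a narrow band, so that the log2 fold change of 0.44 ± 0.41 (SE) was -0.03 without that tumor. Lum, the fibril-binding lumican, lay farthest below the other MMTV-Wnt1 tumors there, with a difference of -3.83 from their mean, and was at 7.77, 8.65, 9.62 and 9.80 in MMTV-Wnt/ILK tumors 1 to 4, against 9.04, 9.25, 5.23 and 8.87 in MMTV-Wnt1 tumors 1 to 4. Its log2 fold change was 0.86 ± 0.89 (SE), and -0.09 without MMTV-Wnt1 tumor 3, whose value was below its array's lower quartile. Ogn (osteoglycin) ranged over 6.03 to 7.19 in MMTV-Wnt/ILK and 4.50 to 7.65 in MMTV-Wnt1 tumors, and the hyaluronan-binding Vcan (versican) over 9.27 to 11.40 in MMTV-Wnt/ILK and 8.48 to 12.08 in MMTV-Wnt1 tumors, with log2 fold changes of 0.36 and 0.10.

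Matricellular proteins signal from the matrix more than they build it, and their genes held both the largest positive log2 fold change of the 50 genes and an exception to the pattern of MMTV-Wnt1 tumor 3. Thbs2, which encodes thrombospondin 2, was at 10.01, 10.20, 10.97 and 10.56 in MMTV-Wnt/ILK tumors 1 to 4, against 10.74, 9.19, 7.21 and 10.05 in MMTV-Wnt1 tumors 1 to 4, a log2 fold change of 1.14 ± 0.67 (SE, exact permutation p = 0.229) that was 0.44 without MMTV-Wnt1 tumor 3. Thbs1, its relative thrombospondin 1, was at 11.56, 11.24, 12.45 and 10.98 in MMTV-Wnt/ILK tumors 1 to 4, against 11.95, 11.72, 12.51 and 11.40 in MMTV-Wnt1 tumors 1 to 4. It was highest of the 8 in MMTV-Wnt1 tumor 3, next in MMTV-Wnt/ILK tumor 3, and its log2 fold change was -0.34 ± 0.35 (SE). Postn, which encodes periostin, was at 10.70, 11.03, 11.63 and 11.89 in MMTV-Wnt/ILK tumors 1 to 4, against 11.06, 10.86, 8.94 and 11.95 in MMTV-Wnt1 tumors 1 to 4, a log2 fold change of 0.61 ± 0.58 (SE) and of 0.02 without MMTV-Wnt1 tumor 3. Tnc, the injury- and tumor-associated tenascin C, spread widely in both groups, at 9.04, 7.53, 10.52 and 8.91 in MMTV-Wnt/ILK tumors 1 to 4, against 10.19, 8.53, 7.88 and 10.37 in MMTV-Wnt1 tumors 1 to 4, and its log2 fold change was -0.24 ± 0.73 (SE). Sparc, a collagen-binding glycoprotein, was lowest in MMTV-Wnt1 tumor 3 and had a log2 fold change of 0.23.

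Genes of collagen maturation were the group with a negative median log2 fold change, -0.15 over 3 genes. Pcolce2, an enhancer of the protease that trims procollagen (row 6991538), was at 5.41, 5.93, 6.23 and 5.69 in MMTV-Wnt/ILK tumors 1 to 4, against 6.33, 7.08, 6.54 and 8.88 in MMTV-Wnt1 tumors 1 to 4. Every MMTV-Wnt/ILK tumor lay below every MMTV-Wnt1 tumor, MMTV-Wnt1 tumor 4 was highest by a wide margin, and MMTV-Wnt1 tumor 3 was not among the extremes. The MMTV-Wnt/ILK values were low on their arrays, whose lower quartiles were 5.51 to 5.57, and MMTV-Wnt/ILK tumor 1 lay below its own. The log2 fold change was -1.39 ± 0.52 (SE, limma unadjusted p = 0.025, adjusted p = 0.905, exact permutation p = 0.029, the smallest that 4 against 4 tumors allow). Leaving out each tumor in turn it ranged from -1.69 to -0.84, nearest to 0 without MMTV-Wnt1 tumor 4, and the unadjusted limma p was 0.063 when MMTV-Wnt/ILK tumor 1 was omitted and 0.053 when MMTV-Wnt/ILK tumor 4 was. It was also the 1 matrix gene past a 2.5-fold change with an unadjusted p under 0.05, against 0.373% of all rows.

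Loxl1 and Loxl2, the lysyl oxidase genes measured among the matrix genes, whose enzymes crosslink collagen and elastin, were both lowest in MMTV-Wnt1 tumor 3. Loxl1 was at 8.61, 8.24, 9.12 and 9.14 in MMTV-Wnt/ILK tumors 1 to 4, against 8.60, 8.78, 6.62 and 8.54 in MMTV-Wnt1 tumors 1 to 4, a log2 fold change of 0.64 ± 0.47 (SE) that was 0.14 without that tumor. Loxl2 was at 7.21, 7.53, 7.81 and 7.25 in MMTV-Wnt/ILK tumors 1 to 4, against 7.81, 7.98, 6.76 and 7.86 in MMTV-Wnt1 tumors 1 to 4, a log2 fold change of -0.15 ± 0.29 (SE) that was -0.43 without it. The pair differed in direction with all 8 tumors, and the groups overlapped in both genes. Loxl4, a relative counted with the collagen biosynthesis genes, was at 6.12, 6.32, 6.93 and 6.29 in MMTV-Wnt/ILK tumors 1 to 4, against 6.54, 7.13, 6.12 and 9.24 in MMTV-Wnt1 tumors 1 to 4, highest in MMTV-Wnt1 tumor 4 and lowest in MMTV-Wnt/ILK tumor 1, with MMTV-Wnt1 tumor 3 beside it, and its log2 fold change was -0.84. Loxl3, a further relative, was lowest in MMTV-Wnt1 tumor 3 and had a log2 fold change of 0.12.

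Of the receptors and surface proteins of fibroblasts, Thy1, a surface glycoprotein, was at 8.83, 8.55, 9.32 and 9.46 in MMTV-Wnt/ILK tumors 1 to 4, against 7.70, 9.29, 7.67 and 9.31 in MMTV-Wnt1 tumors 1 to 4, with MMTV-Wnt1 tumors 1 and 3 below every other tumor and a log2 fold change of 0.55 ± 0.44 (SE). Pdgfra, a receptor for platelet-derived growth factor, was at 8.87, 8.72, 7.91 and 8.42 in MMTV-Wnt/ILK tumors 1 to 4, against 7.63, 7.73, 5.84 and 9.62 in MMTV-Wnt1 tumors 1 to 4. All 4 MMTV-Wnt/ILK tumors lay above MMTV-Wnt1 tumors 1, 2 and 3 and below MMTV-Wnt1 tumor 4, and the log2 fold change was 0.78 ± 0.67 (SE). Without MMTV-Wnt1 tumor 4 limma called Pdgfra higher at an unadjusted p under 0.05, against 5.21% of all rows called in either direction. Pdgfrb, the receptor of pericytes and fibroblasts, ranged over 9.57 to 9.85 in MMTV-Wnt/ILK and 9.04 to 10.91 in MMTV-Wnt1 tumors, and Fap, a protease of activated fibroblasts, over 5.30 to 6.42 in MMTV-Wnt/ILK and 5.43 to 7.53 in MMTV-Wnt1 tumors, with log2 fold changes of -0.14 and -0.42. All 4 genes had a larger SD among MMTV-Wnt1 tumors.

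**Figure D3:**
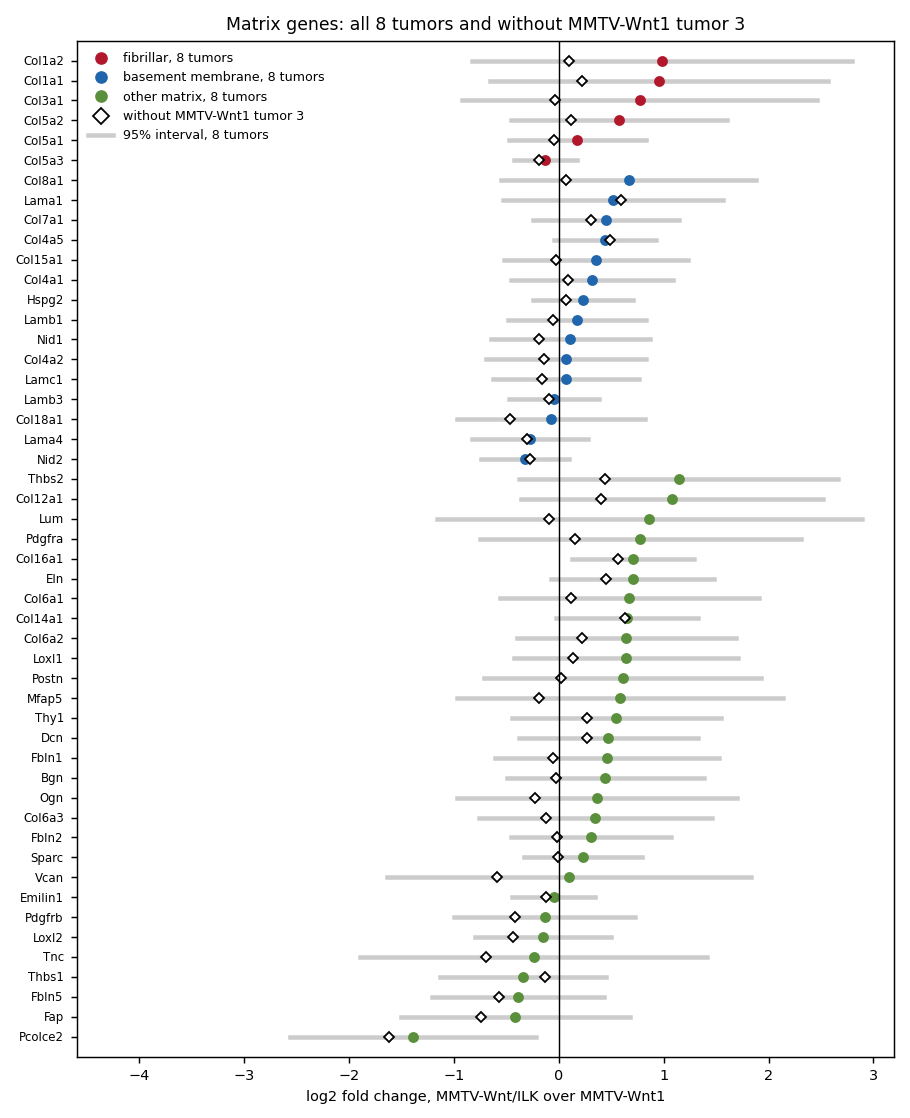
Log2 fold change of MMTV-Wnt/ILK over MMTV-Wnt1 for each of the 50 matrix genes, sorted within class, with all 8 tumors (filled circles, grey bars for the 95% interval from limma) and without MMTV-Wnt1 tumor 3 (open diamonds). With 2 exceptions, Col16a1 and Pcolce2, every bar crosses 0, and the diamonds of most fibrillar and other matrix genes lie left of the circles.

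Per tumor, the median deviation of the 6 fibrillar genes from their own means was -0.04, -0.04, 0.43 and 0.99 in MMTV-Wnt/ILK tumors 1 to 4, against 0.61, 0.07, -2.19 and -0.00046 in MMTV-Wnt1 tumors 1 to 4. For the 15 basement membrane genes it was 0.10, 0.26, -0.25 and 0.36 in MMTV-Wnt/ILK tumors 1 to 4, against -0.15, 0.40, -0.66 and 0.11 in MMTV-Wnt1 tumors 1 to 4. For the 29 other matrix genes it was -0.07, 0.12, 0.22 and 0.59 in MMTV-Wnt/ILK tumors 1 to 4, against 0.10, 0.32, -1.24 and 0.33 in MMTV-Wnt1 tumors 1 to 4. MMTV-Wnt1 tumor 3 was lowest in each class, most in the fibrillar class and least in the basement membrane class, while the median deviation of all rows in that tumor was 0.04. The spread was larger among MMTV-Wnt1 tumors in 38 of 50 matrix genes (76.0%, against 67.3% of all rows), and without MMTV-Wnt1 tumor 3 in 23 of 50, against 64.0% of all rows.

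**Figure D4:**
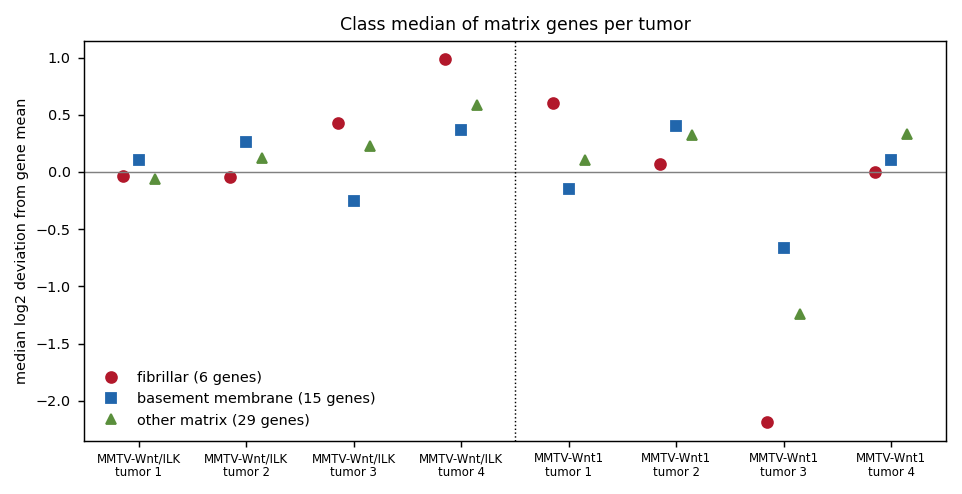
Median over the genes of each class of the log2 deviation from the gene's mean, for each tumor, with the 4 MMTV-Wnt/ILK tumors left of the dotted line and the 4 MMTV-Wnt1 tumors right of it. The 3 classes lie at their lowest in MMTV-Wnt1 tumor 3, the fibrillar median at -2.19, and the fibrillar median is highest in MMTV-Wnt/ILK tumor 4, at 0.99.

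With each tumor left out, the fibrillar median log2 fold change was 0.85, 0.75, 0.65 and 0.44 without MMTV-Wnt/ILK tumors 1 to 4 in turn, and 0.89, 0.85, 0.03 and 0.89 without MMTV-Wnt1 tumors 1 to 4 in turn. The basement membrane median was 0.12, 0.16, 0.33 and 0.11 without MMTV-Wnt/ILK tumors 1 to 4 in turn, and 0.21, 0.35, -0.05 and 0.22 without MMTV-Wnt1 tumors 1 to 4 in turn. The median of the other matrix genes was 0.56, 0.48, 0.50 and 0.37 without MMTV-Wnt/ILK tumors 1 to 4 in turn, and 0.51, 0.62, -0.03 and 0.60 without MMTV-Wnt1 tumors 1 to 4 in turn. Of the 8 omissions, that of MMTV-Wnt1 tumor 3 brought the 3 medians nearest to 0, and in each of the others the order of the classes was the same, fibrillar above other matrix above basement membrane. Without MMTV-Wnt1 tumor 3 the means were higher in MMTV-Wnt/ILK for 3 of 6 fibrillar, 6 of 15 basement membrane and 12 of 29 other matrix genes.

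**Figure D5:**
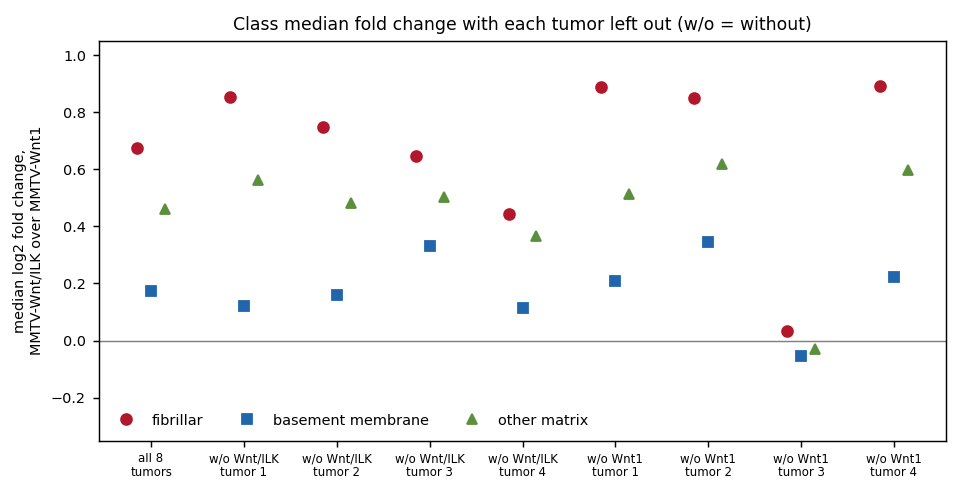
Median log2 fold change of each class, MMTV-Wnt/ILK over MMTV-Wnt1, with all 8 tumors and with each tumor left out. The fibrillar median lies between 0.44 and 0.89 in every omission other than that of MMTV-Wnt1 tumor 3, where it is 0.03 and the other classes are at -0.05 and -0.03.

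Genes that modify, fold and process collagen chains inside and outside the cell were also low in MMTV-Wnt1 tumor 3, but had a median log2 fold change close to 0. Of 18 measured of 23 listed, 10 had higher and 8 lower means in MMTV-Wnt/ILK, the median log2 fold change was 0.03, and MMTV-Wnt1 tumor 3 was the lowest of the 8 in 7 genes (38.9%, against 11.1% of all rows), with a median deviation of -0.41. P4ha3, a prolyl 4-hydroxylase subunit, was called at an unadjusted p under 0.05 in limma (log2 fold change 0.77, with 2.91% of all rows called higher). It was not called without MMTV-Wnt1 tumor 3, its lowest (log2 fold change 0.53). Without that tumor 1 other gene of the list, Plod2, a lysyl hydroxylase, was called lower, against 1.99% of all rows. Its log2 fold change was then -0.90, and its limma unadjusted p of 0.049995 lay at the threshold. Of 35 measured of 36 further matrix genes, 25 had higher means, the median was 0.11, and MMTV-Wnt1 tumor 3 was the lowest in 15. Of these, 3 were called higher at an unadjusted p under 0.05 and none lower, against 2.91% and 2.21% of all rows. They were Col4a6 (0.65), a collagen IV chain, Ltbp3 (0.46), a latent TGF-beta binding protein, and Omd (0.999), which was below the lower quartile of all 8 arrays. For Ltbp3 the MMTV-Wnt/ILK values all exceeded the MMTV-Wnt1 values, as in 1.47% of all rows. Without MMTV-Wnt1 tumor 3, 2 of the 35 were called higher, Col4a6 and Ltbp3, against 2.62% of all rows, and Omd was not (log2 fold change 0.94). Fn1, which encodes fibronectin, was at 10.57, 9.82, 11.58 and 11.19 in MMTV-Wnt/ILK tumors 1 to 4, against 11.25, 10.76, 7.41 and 11.06 in MMTV-Wnt1 tumors 1 to 4, again far lowest in MMTV-Wnt1 tumor 3.

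Markers of other cells in the tissue moved with MMTV-Wnt1 tumor 3 to differing degrees. Of 11 measured fibroblast genes not among the members (such as Prrx1, Cd248, Vim and Tcf21), 5 were lowest in that tumor and 1, Tcf21, was highest. Their median deviation there was -0.74, and the mean level over the list was 7.65 to 8.005 in MMTV-Wnt/ILK and 7.17 to 8.24 in MMTV-Wnt1 tumors. Dpt, which was lowest in MMTV-Wnt1 tumor 3, counts both in this list and among the further matrix genes above. Of 9 epithelial genes 2, Krt5 and Krt14, were lowest in that tumor, and 4, Epcam, Krt18, Cldn3 and Cldn4, were highest. The median deviation there was 0.37 and the mean level was 10.49 to 10.91 in MMTV-Wnt/ILK and 10.29 to 11.02 in MMTV-Wnt1 tumors. Of 8 endothelial genes 2 were lowest there, with a median deviation of -0.03 and a mean level of 8.37 to 8.86 in MMTV-Wnt/ILK and 8.40 to 9.62 in MMTV-Wnt1 tumors. Of 7 pericyte and smooth muscle genes 1 was lowest there, with a median deviation of -0.06 and a mean level of 9.00 to 9.57 in MMTV-Wnt/ILK and 9.16 to 9.97 in MMTV-Wnt1 tumors. Of 5 macrophage genes 3 were lowest there, with a median deviation of -0.47 and a mean level of 9.01 to 9.44 in MMTV-Wnt/ILK and 8.38 to 9.48 in MMTV-Wnt1 tumors. In MMTV-Wnt1 tumor 3 Mrc1 was at 5.65, against 8.61 to 9.67 in the other MMTV-Wnt1 tumors. Cd14 went the other way, at 9.91 in that tumor against 8.33 to 9.29 in the other MMTV-Wnt1 tumors. Of 4 leukocyte genes none was lowest there, with a median deviation of 0.18 and a mean level of 5.80 to 7.02 in MMTV-Wnt/ILK and 6.21 to 6.82 in MMTV-Wnt1 tumors. The median log2 fold changes of these lists were 0.23 for fibroblast, -0.07 for epithelial, -0.07 for endothelial, -0.12 for pericyte and smooth muscle, 0.19 for macrophage, 0.08 for leukocyte, -0.45 for fat and 0.19 for skeletal muscle genes. At an unadjusted p under 0.05 limma called Tcf21 of the fibroblast list (-0.59) and Mcam of the pericyte list (-0.79), both lower in MMTV-Wnt/ILK, where 2.21% of all rows were so called. Tcf21, which was below the lower quartile on 5 arrays, was not called without MMTV-Wnt1 tumor 3 (log2 fold change -0.39). Mcam was still called lower then (-0.94), against 1.99% of all rows, and Cd14 was called higher (0.86), against 2.62% of all rows. With all tumors, the groups lay on separate sides for Mcam and for the fat gene Ucp1, both lower in MMTV-Wnt/ILK, against 1.42% of all rows. None of these arrays holds a value of 0, and the part of these cells in the matrix result was not tested.

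Fat markers were highest in another MMTV-Wnt1 tumor. All 7 measured fat genes were highest of the 8 in MMTV-Wnt1 tumor 2, with a mean level of 5.65 to 5.91 in MMTV-Wnt/ILK and 5.55 to 8.32 in MMTV-Wnt1 tumors, and Adipoq, Lep and Ucp1 were below the lower quartile on 7 of 8 arrays each. Endothelial genes were also highest in that tumor, in 7 of 8. In MMTV-Wnt1 tumor 2 the median deviation was 0.07 for fibrillar, 0.40 for basement membrane and 0.32 for other matrix genes, and without it the 3 class medians were higher, as given above. In MMTV-Wnt1 tumor 3 the median deviation of the fat genes was -0.34, and 1 of the 7, Fabp4, was lowest there. The part of fat tissue in these values was not tested.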

How the data were processed

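Total RNA from snap-frozen tumors was depleted of ribosomal RNA and hybridized to GeneChip Mouse Exon 1.0 ST arrays, 1 per tumor, and the authors summarised core exons to gene-level RMA values in ArrayAssist. The deposited table holds log2 values, already background-corrected and normalized across the 8 arrays by RMA; the log base was read from the range of the values, and the genome build is not given in the sources used here. Rows were named by the platform annotation. Symbols were looked up in RefSeq of GRCm38.p6, which changed 0 of them, and 55 rows with 1 gene had no match there. Of 23332 rows 14996 named exactly 1 gene, 1019 named several and 7317 none. The row with the highest mean stood for a gene.

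Groups came from the sample labels. All rows entered 1 linear model per row (limma 3.58.1 under R 4.3.3, moderated by eBayes), with Benjamini-Hochberg adjustment over all 23332 rows, SE and 95% intervals from the moderated variance, and for single genes an exact two-sided permutation test, which enumerated 70 divisions of the tumors into groups of 4. Class values are medians, without a test. The procedure was tested on simulated data. Values per tumor were given for genes with the smallest p in each role group, for those called, and for those where a tumor stood apart. Those of Col1a2, Col3a1, Col5a1, Col5a3, Col12a1, Thbs1, Tnc, Loxl4, Fn1, Mrc1 and Cd14 were added after their values were seen. The matrix genes and all lists were chosen with earlier results of these data known. Alternatives were an equal-variance test, a variance trend, array weights, median-centred arrays, a replicate block, removal of the dimmest 25% of rows, a repeated quantile normalization, other choices of row and leaving out each tumor. The files used carry no scan date or other batch, and the number of arrays limits the precision.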

Additional observations from a re-analysis of the deposited data

Results flagged for a closer look

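In 13 of the 100 groups of 4 tumors examined (50 genes in each group), the highest or lowest tumor stood apart from its group. Its gap to the nearest tumor, as a share of the range, exceeded the critical value of Dixon's test at 95%. At that level about 1 in 20 groups, or 5, would be flagged for normally distributed values. The genes were read on the same arrays and are not independent, so the 13 cannot be tested against this number. Of the 13 values, 8 were low values in MMTV-Wnt1 tumor 3: Col6a1 at 6.996, Col6a3 at 8.27, Eln at 7.51, Mfap5 at 6.06, Lum at 5.23, Bgn at 9.46, Loxl1 at 6.62 and Loxl2 at 6.76. These comprise collagen VI chains, elastic fiber genes, small proteoglycans and lysyl oxidases, none of them a fibrillar collagen or a basement membrane gene. The rule weighs the gap against the range of the group. In that tumor the fibrillar genes still had the lowest median deviation of the classes, at -2.19. In MMTV-Wnt/ILK tumor 3, Col7a1 at 7.52 and Lamb1 at 9.73 lay below the other 3 MMTV-Wnt/ILK tumors. The other low values were Lama4 at 9.51 in MMTV-Wnt/ILK tumor 2, Fbln5 at 7.08 in MMTV-Wnt/ILK tumor 1 and Col4a5 at 7.36 in MMTV-Wnt1 tumor 1.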

How the results depend on the processing

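No matrix gene had an adjusted p under 0.05 in limma under any alternative, and over all rows the count was 0 apart from 13 without MMTV-Wnt/ILK tumor 2, so that it ranged from 0 to 13 as each tumor was left out. The number of matrix genes at an unadjusted p under 0.05, 2 with all tumors, was 1 when each row kept its own equal-variance test (Col16a1, against 5.16% of all rows), 4 with array weights (Col14a1, Col16a1, Thbs2 and Pcolce2, against 11.2% of all rows) and 4 with the replicate block (Col7a1, Col16a1, Eln and Pcolce2, against 6.36% of all rows). It ranged from 0 to 6 as each tumor was left out. The count was 6 without MMTV-Wnt1 tumor 1 (against 8.61% of all rows) or without MMTV-Wnt/ILK tumor 3 (against 5.13%). It was 1 without MMTV-Wnt1 tumor 2 (against 5.96%) or 3 (against 4.61%), and 0 without MMTV-Wnt/ILK tumor 4 (against 3.12%). Deviations of same-numbered tumors correlated at 0.11, 0.13, 0.15 and -0.0041, and 5 of 8 tumors correlated best with their own number. The labels give no shared origin for a number, so the tumors were not treated as pairs. Of the 4 correlations 1 was below 0.1, and whether same-numbered tumors were processed together was not tested. The median log2 fold changes of the fibrillar, basement membrane and other matrix classes were 0.67, 0.18 and 0.46 with all tumors. Without MMTV-Wnt1 tumor 3 they were 0.03, -0.05 and -0.03. Under all alternatives they moved by less than 1 SD of the class median between tumors of a group (0.94, 0.37 and 0.57). That SD includes MMTV-Wnt1 tumor 3 itself, and leaving out 1 of 4 tumors could hardly move a median by more. The SD is therefore no measure of how stable the medians were. Of 450 gene values with all tumors kept, 4 changed sign, all with array weights: Col4a2 (-0.034), Lamc1 (-0.083), Emilin1 (0.012) and Vcan (-0.20). With 1 tumor left out, 34 of 400 changed sign, in 21 genes. Of these genes, 16 changed sign without MMTV-Wnt1 tumor 3, and their log2 fold changes over the 8 omissions ranged as follows: Col3a1 -0.033 to 1.15, Col5a1 -0.044 to 0.36, Col4a2 -0.14 to 0.35, Col15a1 -0.027 to 0.59, Lamb1 -0.053 to 0.38, Lamc1 -0.16 to 0.25, Nid1 -0.19 to 0.30, Col6a3 -0.12 to 0.66, Fbln1 -0.057 to 0.75, Fbln2 -0.017 to 0.55, Mfap5 -0.19 to 0.87, Lum -0.093 to 1.26, Bgn -0.029 to 0.62, Ogn -0.22 to 0.83, Vcan -0.59 to 0.61 and Sparc -0.011 to 0.38. In the other 5 the ranges were Col18a1 -0.47 to 0.21, Lamb3 -0.14 to 0.076, Emilin1 -0.15 to 0.055, Tnc -0.75 to 0.25 and Pdgfrb -0.42 to 0.21. The causes were not tested. With 4 tumors a group, 1 array each and no count of molecules, small differences could not be told from the spread, and Fap, Lum, Ogn and Pcolce2 had values below the lower quartile of at least 1 array, where signal lies nearest to background.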
